A study of Homo sapiens with 18 samples.

Results

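Microvilli are finger-like protrusions of the apical membrane of epithelial cells, each built on a bundle of parallel actin filaments. Here 10 genes for the adhesion and bundling of microvilli were followed in A549 cells, an established line from a human lung adenocarcinoma, during exposure to sodium propionate (SP), the salt of a short-chain fatty acid. The 10 genes are ANKS4B, USH1C, CDHR2, CDHR5 and MYO7B of the intermicrovillar adhesion complex, the bundling proteins ESPN, VIL1 and PLS1, and EZR and MYO1A, which tie the bundle to the membrane. They are 10 of the 61541 genes in each count table. They were picked by function with the fold changes of all 4 comparisons between SP and control already known, so their values and calls in those comparisons are given as a description from which nothing is read.

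RNA-seq reads were counted in 18 libraries, 3 per group, held in 2 tables that were normalized and tested separately. All cells carried the WT genotype and belonged to one line. The first table held untreated cells (Control_3D) and cells given SP for 3 days (SP_3D) or 12 days (SP_12D), and the second held untreated cells (Control_24H) and cells given SP for 3 hours (SP_3H) or 24 hours (SP_24H), always at 5 mM. SP_12D had no untreated group of its own age and SP_3H none of 3 hours, so in those comparisons the time in culture and the treatment cannot be told apart. The study calls the libraries of a group at the short times biological replicates. Nothing in the labels said for any group whether the libraries came from separate cultures, and p-values measure only the spread between these libraries.

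In the brush border of the intestine and kidney, the protocadherins CDHR2 and CDHR5 span the gap between neighbouring microvilli and hold their tips together. Inside the tip, the scaffolds USH1C (harmonin) and ANKS4B join the protocadherins to the motor MYO7B. VIL1 (villin), PLS1 (plastin 1, also called fimbrin) and ESPN (espin) cross-link the actin core, EZR (ezrin) links filaments to the plasma membrane, and MYO1A forms bridges between the core and the membrane. Hair cells of the inner ear use a related set of proteins in their stereocilia.

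ESPN and ANKS4B moved furthest, in opposite directions. ESPN had 8 reads over the Control_3D libraries and 1 over the Control_24H libraries, against 361, 338 and 668 in SP_3D, SP_12D and SP_24H. ANKS4B had 301 and 198 reads in the control groups, against 14, 3 and 67. Among the other members MYO1A and MYO7B had fewer reads in SP_3D, SP_12D and SP_24H than in control. The fold changes of USH1C, VIL1 and CDHR5 differed between the comparisons, and CDHR2, PLS1 and EZR had log2 fold changes between -0.47 and 1.00 in the 4 comparisons. The short and long times lie in different tables with their own controls, so time and table cannot be told apart between them.

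The sequence upstream of the start site is shown for ANKS4B and MYO7B, the members of the adhesion complex that were lower in both SP_3D and SP_24H, and for the upstream start of CDHR2, which was higher in SP_3D and SP_12D. Each run is the 250 bases before a RefSeq start (GRCh38.p14), written 5′ to 3′ on the gene's strand. Capitals mark CAGGTG, the E2 box read by zinc finger E-box repressors, on either strand, and ANKS4B holds no match to it.
ANKS4B, chr16:21233449-21233698, plus strand: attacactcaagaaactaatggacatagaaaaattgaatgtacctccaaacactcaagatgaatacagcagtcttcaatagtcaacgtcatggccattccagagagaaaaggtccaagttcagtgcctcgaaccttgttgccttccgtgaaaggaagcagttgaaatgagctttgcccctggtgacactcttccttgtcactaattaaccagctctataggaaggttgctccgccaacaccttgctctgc
MYO7B, chr2:127535433-127535682, plus strand: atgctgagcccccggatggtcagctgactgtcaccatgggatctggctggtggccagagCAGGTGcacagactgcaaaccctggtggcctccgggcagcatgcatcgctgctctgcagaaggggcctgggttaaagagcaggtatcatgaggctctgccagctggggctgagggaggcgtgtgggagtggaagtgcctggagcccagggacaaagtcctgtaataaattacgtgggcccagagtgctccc
CDHR2 upstream start, chr5:176542261-176542510, plus strand: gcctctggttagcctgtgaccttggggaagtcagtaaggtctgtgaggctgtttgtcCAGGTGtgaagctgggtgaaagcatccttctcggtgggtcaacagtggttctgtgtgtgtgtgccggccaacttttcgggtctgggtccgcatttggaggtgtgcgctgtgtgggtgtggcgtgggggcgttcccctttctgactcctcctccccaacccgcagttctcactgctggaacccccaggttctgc

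Windows were at hand for 13 start sites of 7 members, and none for CDHR5, ESPN and VIL1. The E2 box CAGGTG lay in 2 of the 13 windows, beside 17.49% of all 35116 windows. The caudal type homeobox core TTTATG (9.64% of all windows) and the GATA core AGATAA (9.17%) were found in PLS1, the AP-1 element TGANTCA (6.57%) in EZR, and TATAAA (10.72%) in MYO1A and in the downstream start of MYO7B. The Grainyhead core AACNGGTT (1.49%) was in no member window. A match of letters is a description of the sequence and names no bound factor.

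Total counts ran from 15425281 to 21992046 per library in the first table and from 14187401 to 43765330 in the second. A gene was tested when it passed a filter on low counts, which left 17775 and 17377 genes and 9 of the 10 members, all but MYO7B. The third SP_12D library stood apart from its group, with a root mean square log2 distance of 0.477 and 0.519 to the other libraries. Those were 0.311 apart. For the members, results that rest on the third library are given with and without it. The control libraries of the second table were the furthest apart, at 0.513 to 0.743. All 9 markers of the A549 line were well detected in every library, among them KRT8, KRT18, ALDH1A1 and AKR1B10. Of 8 enterocyte markers only CDX2 had enough reads to be tested, and ALPI, SI, FABP2, APOA4 and APOB had at most 2 reads in any library. The summed enterocyte markers, mostly CDX2, ran from 19.1 to 28.4 normalized counts in Control_3D and from 43.8 to 62.1 in SP_3D and SP_12D. At the short times they ran from 11.9 to 16.5 in Control_24H, 12.8 to 27.1 in SP_3H and 32.7 to 35 in SP_24H. Fibroblast markers summed to 261 to 271 in Control_3D, 1110 to 1290 in SP_3D and 630 to 1100 in SP_12D, and to 170 to 571 in Control_24H, 492 to 1010 in SP_3H and 1650 to 2360 in SP_24H, mostly from COL1A1, while COL1A2 had at most 1 read in any library. Immune markers, nearly all CD14 with CD3E at 0 reads throughout, summed to 307 to 329 in Control_3D, 622 to 679 in SP_3D and 237 to 479 in SP_12D, and to 89.7 to 112 in Control_24H, 69.1 to 127 in SP_3H and 378 to 449 in SP_24H. Endothelial markers summed to 12.9 to 56.3 normalized counts. The part of other cell types in the results was not tested.

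Normalized counts are reads scaled to the mean library of their table, and are comparable between libraries of 1 table for 1 gene but not between genes. A log2 fold change is written with its standard error (SE). The fraction of all tested genes past an adjusted p of 0.05 (edgeR's quasi-likelihood test, Benjamini-Hochberg) is given as the background of each comparison. Groups without overlap were common. Against control they made up 61.2% of all tested genes in SP_3D, 55.9% in SP_12D, 27.3% in SP_3H and 44.4% in SP_24H. From 3 to 24 hours the share was 44.9% and from 3 to 12 days 26.8%.

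**Figure D1:**
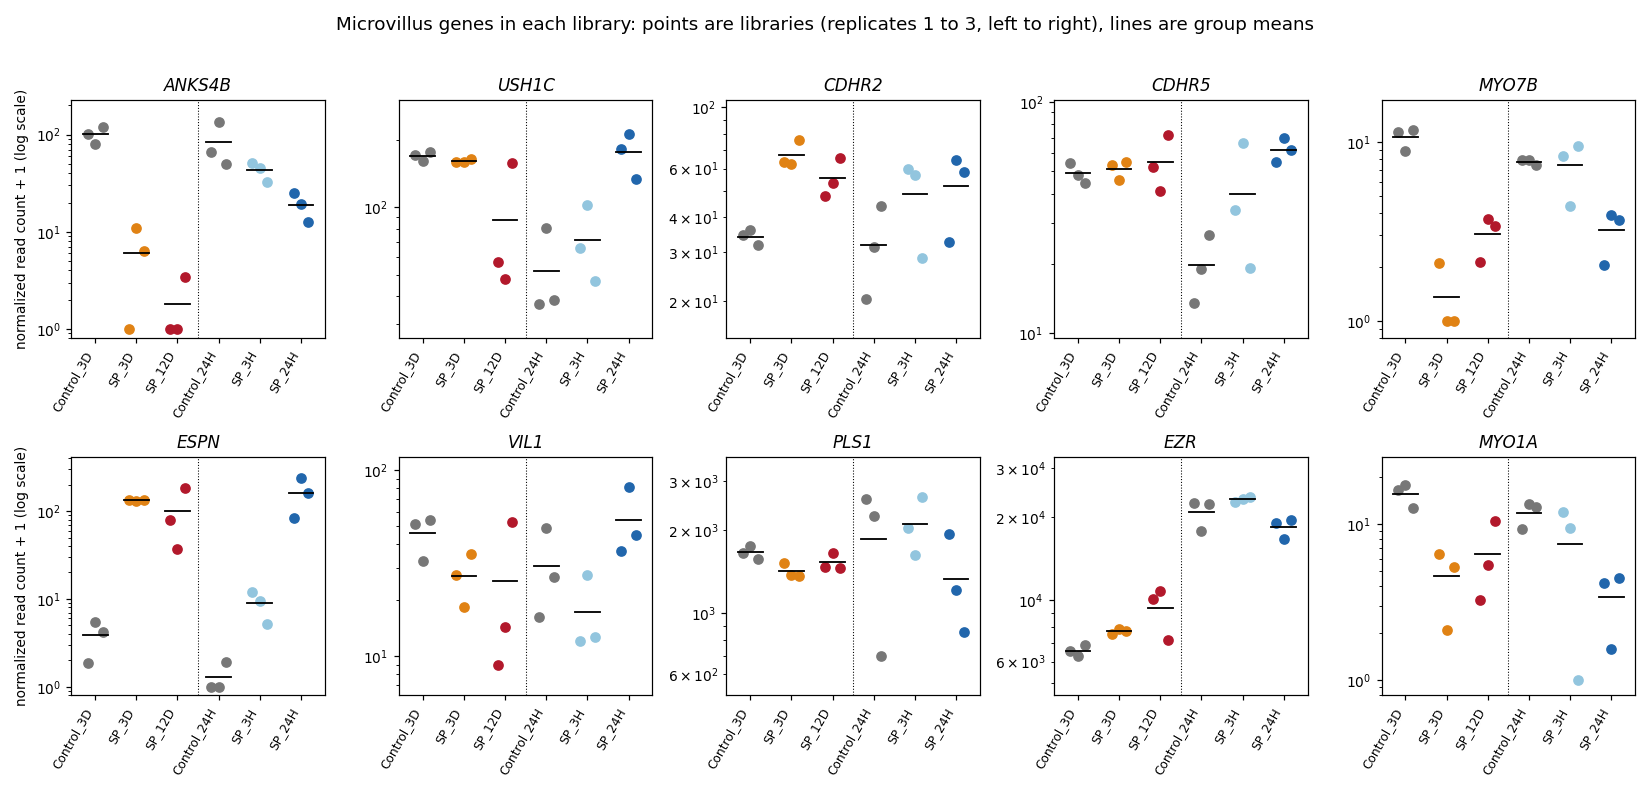
Normalized read count plus 1 (log scale) of each of the 10 microvillus genes, 1 point per library (3 per group, in replicate order) with a line at the group mean. Groups left of the dotted line belong to the first count table and those right of it to the second, and heights are not comparable across the line. ESPN lies at 4.50 normalized counts or less in all 6 control libraries and at 35.9 or more in SP_3D, SP_12D and SP_24H, and ANKS4B shows the opposite order.

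Within the adhesion complex, the scaffold ANKS4B (ENSG00000175311, chr16:21233699-21253850, plus strand, 2 exons) was lower at 3 of the 4 SP times with no overlap between the groups. Its normalized counts were 101, 78.8 and 120 in Control_3D, 0, 9.86 and 5.38 in SP_3D, and 0, 0 and 2.39 in SP_12D. At the short times they were 64.9, 135 and 48.5 in Control_24H, 49.7, 44 and 31.9 in SP_3H, and 24.3, 18.1 and 11.5 in SP_24H. All 6 libraries of SP_3D and SP_12D lay below every control library, the SP_24H libraries did so too, and those of SP_3H overlapped the control. The log2 fold change was -4.27 ± 0.48 (SE, n = 3 against 3) for SP_3D, -0.98 ± 0.40 for SP_3H and -2.19 ± 0.42 for SP_24H. For SP_12D the reads were 3 against 301, a ratio of 0.00918 after scaling for depth, with a 95% interval of 0.00188 to 0.0271. Intervals on ratios of reads cover counting error only. No other annotated gene shares exonic bases with ANKS4B.

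USH1C (ENSG00000006611, chr11:17493895-17544416, minus strand), the harmonin scaffold that binds the tails of both protocadherins, did not follow ANKS4B. It had 170, 160 and 175 normalized counts in Control_3D, 158, 158 and 162 in SP_3D, and 55.7, 46.6 and 157 in SP_12D. SP_3D lay close to control, while 2 of the 3 SP_12D libraries lay far below it and the third library did not. At the short times USH1C had 35.9, 80.0 and 37.5 normalized counts in Control_24H, 64.4, 101 and 45.7 in SP_3H, and 181, 210 and 132 in SP_24H. Every SP_24H library was above every SP_3H and control library. The log2 fold changes against control were -0.08 ± 0.36 in SP_3D, -0.93 ± 0.38 in SP_12D, 0.49 ± 0.39 in SP_3H and 1.79 ± 0.37 in SP_24H, and without the third SP_12D library the second of these was -1.75.

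The protocadherin CDHR2 (ENSG00000074276, chr5:176542511-176595974, plus strand) was higher with SP in the first table. It had 33.5, 34.9 and 30.8 normalized counts in Control_3D, 62.5, 61.3 and 75.2 in SP_3D, and 46.6, 52.0 and 64.5 in SP_12D. No SP library of this table overlapped the control, and the log2 fold changes were 1.00 ± 0.20 and 0.73 ± 0.20. At the short times CDHR2 had 19.3, 30.3 and 43.0 in Control_24H, 58.9, 55.9 and 27.7 in SP_3H, and 31.7, 63.7 and 57.3 in SP_24H. The groups overlapped there, with log2 fold changes of 0.57 ± 0.40 and 0.70 ± 0.39. On 173 exonic bases CDHR2 lies opposite GPRIN1, which rose in SP_3D (log2 fold change 1.38, adjusted p = 3.73e-08) and SP_12D (1.23, 1.07e-07), and the sources used here do not say whether reads were counted by strand.

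CDHR5 (ENSG00000099834, chr11:616577-626078, minus strand), the partner protocadherin of CDHR2, was near control in the first table and higher at 24 hours. It had 53.3, 47.3 and 43.6 normalized counts in Control_3D, 52.6, 44.9 and 53.8 in SP_3D, and 51.1, 40.4 and 70.9 in SP_12D. Its values at the short times were 12.4, 17.9 and 25.6 in Control_24H, 33.1, 65.2 and 18.1 in SP_3H, and 53.9, 68.9 and 60.8 in SP_24H. The SP_24H libraries did not overlap the control and the log2 fold change was 1.67 ± 0.44, against 1.05 ± 0.46 for SP_3H, 0.06 ± 0.22 for SP_3D and 0.18 ± 0.22 for SP_12D. The 2 small differences of the first table changed sign, to -0.34 and -0.12, when GC content and transcript length were corrected for (64.5% GC in its longest transcript).

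MYO7B (ENSG00000169994, chr2:127535683-127637729, plus strand), the motor that carries the complex to the tip, was close to the detection limit. It had 12, 7 and 10 reads in Control_3D, 1, 0 and 0 in SP_3D, and 1, 3 and 3 in SP_12D. At the short times there were 5, 5 and 7 reads in Control_24H, 4, 4 and 8 in SP_3H, and 1, 5 and 3 in SP_24H. The reads were lower than control in all libraries of SP_3D and SP_12D. Scaled for depth, the summed reads stood at a ratio of 0.0375 to control in SP_3D (95% interval 0.000917 to 0.226), 0.222 in SP_12D (0.0822 to 0.518), 0.898 in SP_3H (0.424 to 1.89) and 0.355 in SP_24H (0.139 to 0.841).

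Among the bundling proteins, ESPN (ENSG00000187017, chr1:6424776-6461367, plus strand), whose product packs actin filaments tightly in microvilli and stereocilia, went from the lowest level per length of the 10 genes to that of the adhesion genes. It had 0.86, 4.50 and 3.19 normalized counts in Control_3D, 131, 128 and 133 in SP_3D, and 77.3, 35.9 and 183 in SP_12D. It then had 0, 0 and 0.92 in Control_24H, 11.1, 8.46 and 4.25 in SP_3H, and 83.4, 238 and 160 in SP_24H. Within each table every SP library was above every control library. This held for SP_3H too, although that comparison did not pass the threshold (edgeR, adjusted p = 0.0649). The log2 fold changes were 5.55 ± 0.84 in SP_3D and 5.16 ± 0.86 in SP_12D, the latter 4.27 without the third SP_12D library. The single read of Control_24H sets the size of the other ratios, 19.1 for SP_3H (20 reads, 95% interval 3.05 to 791) and 448 for SP_24H (668 reads, 80.1 to 17700). ESPN shares 383 exonic bases with TNFRSF25 on the opposite strand. TNFRSF25 rose in SP_3D (log2 fold change 1.64, adjusted p = 1.41e-05) and SP_12D (1.77, 4.88e-06) and had 0.83 (adjusted p = 0.0626) in SP_24H. The pseudogene ESPNP had 0 to 7 reads in every library, and ESPNL, the paralog of ESPN, failed the filter in both tables.

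VIL1 (ENSG00000127831, chr2:218419121-218453295, plus strand), which bundles filaments and severs them when calcium is high, was low and variable. It had 50.7, 31.5 and 53.1 normalized counts in Control_3D, 26.3, 17.5 and 34.4 in SP_3D, and 7.95, 13.5 and 51.8 in SP_12D. The second table gave 15.2, 48.3 and 25.6 in Control_24H, 11.1, 26.2 and 11.7 in SP_3H, and 35.9, 80.0 and 44.1 in SP_24H. All 4 comparisons with control overlapped, with log2 fold changes of -0.80 ± 0.55, -0.82 ± 0.54, -0.76 ± 0.53 and 0.88 ± 0.46 for SP_3D, SP_12D, SP_3H and SP_24H. Without the third SP_12D library the SP_12D value was -2.06. Of the 6891 exonic bases of VIL1, 3045 lie opposite USP37, which had 169 to 703 reads per library and a log2 fold change of -0.36 (adjusted p = 0.0218) in SP_12D, so that reads of the 2 genes cannot be told apart without strand.

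PLS1 (ENSG00000120756, chr3:142596393-142713664, plus strand), the fimbrin of epithelial microvilli, had the highest level per length of the bundling genes. It had 1655, 1751 and 1567 normalized counts in Control_3D, 1513, 1377 and 1358 in SP_3D, and 1472, 1646 and 1457 in SP_12D. In Control_24H it had 2592, 2255 and 699, in SP_3H 2031, 1621 and 2638, and in SP_24H 1937, 1209 and 851. SP_3D lay just below control with a log2 fold change of -0.23 ± 0.08, against -0.12 ± 0.08 in SP_12D. In the second table the control libraries spread from 699 to 2592, and the log2 fold changes were 0.18 ± 0.46 in SP_3H, which was -0.21 without the third control library, and -0.47 ± 0.46 in SP_24H, which was 0.11 with the correction for GC content and length.

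EZR (ENSG00000092820, chr6:158765741-158819368, minus strand), the linker between the membrane and actin filaments, had the highest level per length of the 10 genes. It had 6530, 6288 and 6858 normalized counts in Control_3D, 7569, 7847 and 7720 in SP_3D, and 10065, 10831 and 7192 in SP_12D. Both SP groups of the first table lay above control without overlap, with log2 fold changes of 0.23 ± 0.12 and 0.51 ± 0.12. The first of these was not past the threshold (edgeR, adjusted p = 0.114). In the short series EZR had 22537, 17781 and 22314 in Control_24H, 22644, 23211 and 23674 in SP_3H, and 19067, 16655 and 19480 in SP_24H, and the log2 fold changes were 0.15 ± 0.12 and -0.18 ± 0.12. Its pseudogene EZRP1 had 0 to 16 reads per library.

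MYO1A (ENSG00000166866, chr12:57028517-57051198, minus strand), the membrane motor of the brush border, was low in control cells and lower with SP. It had 18, 15 and 11 reads in Control_3D, 5, 1 and 4 in SP_3D, and 2, 5 and 12 in SP_12D. At the short times MYO1A had 6, 9 and 13 reads in Control_24H, 6, 10 and 0 in SP_3H, and 3, 1 and 4 in SP_24H. SP_3D and SP_24H did not overlap control in reads, with log2 fold changes of -1.98 ± 0.53 and -2.28 ± 0.84, and those of SP_12D and SP_3H were -1.33 ± 0.47 and -0.84 ± 0.75. Without the third SP_12D library the SP_12D value was -2.05.

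**Figure D2:**
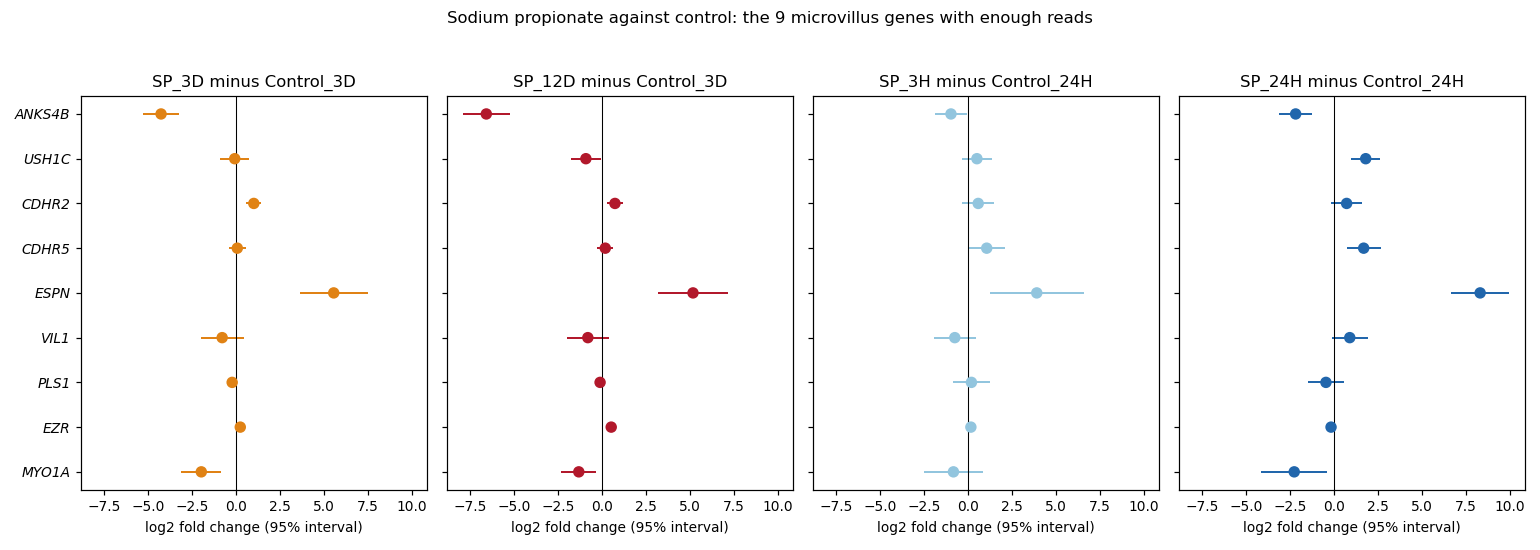
Log2 fold change (point) and 95% interval (line) of the 9 microvillus genes with enough reads, for each SP time against the control group of its table. ESPN lies furthest right in all 4 panels and ANKS4B furthest left in SP_3D and SP_12D, and USH1C and VIL1 lie left of 0 in SP_12D and right of it in SP_24H.

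Counted over the 9 tested members, 2 were past the adjusted p of 0.05 in the higher direction for SP_3D (ESPN and CDHR2) and 3 in the lower (ANKS4B, MYO1A and PLS1), beside 25.2% and 23.3% of all tested genes. For SP_12D 3 were higher (ESPN, CDHR2 and EZR) and 2 lower (ANKS4B and MYO1A), beside 26.4% and 23.4%. For SP_24H 3 were higher (ESPN, USH1C and CDHR5) and 1 lower (ANKS4B), beside 16.8% and 12%. A fit with the replicate block, which takes same-numbered libraries as pairs, was also made for SP_24H. VIL1 was past the threshold there as well, but the pairing is an assumption that rests on correlations between libraries alone. For SP_3H edgeR gave 0 members past the threshold, with 3 at an unadjusted p under 0.05 and 1 by DESeq2, beside 7.39% of all tested genes higher and 4.11% lower. Among these calls MYO1A in SP_12D was lost with DESeq2 and without replicate 1 or 2 of Control_3D or of SP_12D, PLS1 in SP_3D with the correction for GC content and length and without replicate 1 or 2 of Control_3D or replicate 2 or 3 of SP_3D, and CDHR5 in SP_24H without replicate 1 or 2 of Control_24H or replicate 2 of SP_24H. These counts follow from how the members were picked and nothing is read from them. SP_3D and SP_12D share their controls, as do SP_3H and SP_24H.

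The difference between early and late SP was computed between treated groups, whose libraries also entered the comparisons behind the choice of members. Each value is the difference of the fold changes of both times against 1 control group. Those were known at the choice, so the values and calls of members are again only a description. From 3 to 24 hours, 3 of the 9 tested members rose, beside 11.7% of all tested genes, and 0 fell, beside 8.4% (edgeR; by unadjusted p under 0.05, 5 members changed, and DESeq2 called 4). ESPN rose by a log2 fold change of 4.40 ± 0.48 (adjusted p = 7.78e-04), and kept its call whichever library was left out. VIL1 rose by 1.65 ± 0.49 (adjusted p = 0.0422), while for USP37 on the opposite strand the log2 value was -0.72 (adjusted p = 0.211). USH1C rose by 1.29 ± 0.36 (adjusted p = 0.0326). The VIL1 call was lost without replicate 2 or 3 of SP_24H or replicate 1 or 3 of SP_3H (adjusted p up to 0.169), and the USH1C call without replicate 1 or 2 of SP_24H or replicate 1 or 3 of SP_3H (up to 0.116). ANKS4B did not pass the test, with a log2 fold change of -1.21 ± 0.44 (adjusted p = 0.0804), although its SP_24H libraries all lay below those of SP_3H. EZR had -0.33 ± 0.12 (adjusted p = 0.0686), and the remaining members, CDHR2, CDHR5, PLS1 and MYO1A, had adjusted p-values of 0.296 to 0.817.

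From 3 to 12 days, edgeR called 0 of the 9 tested members, with 2 at an unadjusted p under 0.05 and 0 by DESeq2, beside 4.46% of all tested genes higher and 3.65% lower. This count changed without the third SP_12D library, where 5 members passed the test. ESPN fell by 1.27 on the log2 scale (adjusted p = 1.13e-04), USH1C by 1.66 (2.47e-08) and VIL1 by 1.25 (0.0166). ANKS4B fell (0.0211), with 0 reads in the 2 libraries left, and EZR rose by 0.43 (3.85e-05). The percentages above belong to the fit with all libraries. No share of all tested genes is given for the fit without the third library, so nothing about the members is read from its 5 calls. Calls among the other listed genes ran from 5 to 44 over the fits that left out a library. With all 3 libraries ESPN, USH1C, VIL1 and EZR had log2 fold changes of -0.38 ± 0.48, -0.85 ± 0.38, -0.02 ± 0.59 and 0.28 ± 0.12, and ANKS4B had 3 reads against 14, a ratio of 0.182 (95% interval 0.0335 to 0.651). In the third SP_12D library ESPN, USH1C and VIL1 were at their highest of the group and EZR at its lowest.

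**Figure D3:**
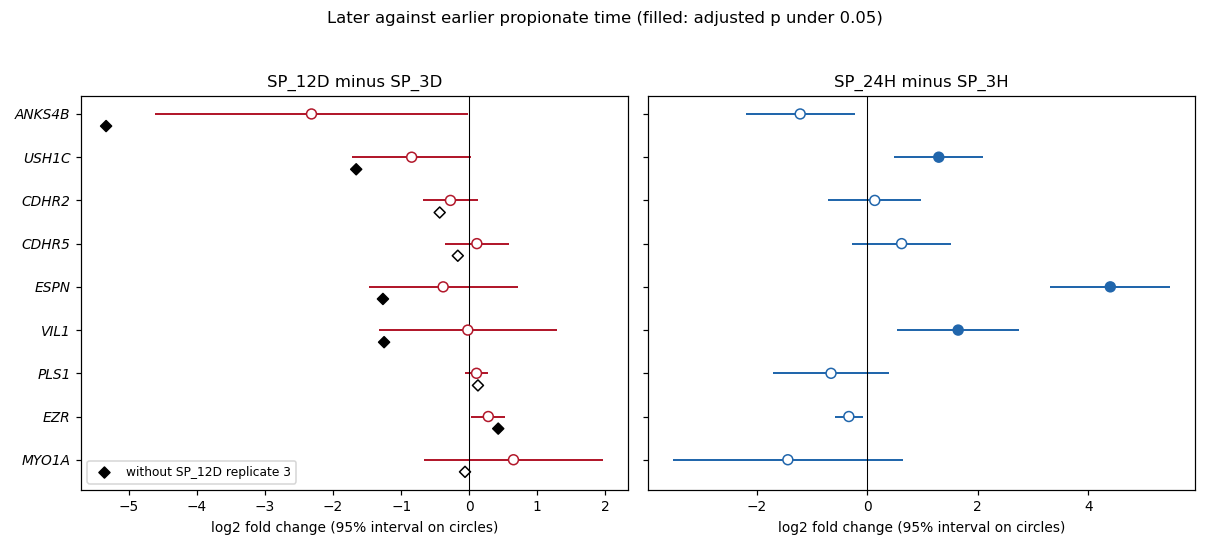
Log2 fold change of the later against the earlier SP time for the 9 tested microvillus genes, with the 95% interval as a line and filled symbols where the adjusted p was under 0.05. Circles use all libraries, and diamonds in the left panel leave out the third SP_12D library, which turns 5 of the 9 genes from open to filled. No share of all tested genes is given for the fit behind the diamonds. In the right panel ESPN, VIL1 and USH1C are filled and lie right of 0.

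Per kilobase of exon (RPKM, reads per kilobase scaled to library size), levels can be set against each other between genes. In Control_3D the order was EZR (111 ± 4.84 RPKM, SD, n = 3), PLS1 (17.4 ± 0.97), USH1C (1.91 ± 0.089), ANKS4B (1.29 ± 0.27), CDHR5 (0.692 ± 0.071), VIL1 (0.364 ± 0.095), CDHR2 (0.341 ± 0.022), MYO1A (0.184 ± 0.034), MYO7B (0.060 ± 0.0094) and ESPN (0.023 ± 0.015). VIL1 and CDHR2 did not differ beyond their spread in that order. In SP_3D ESPN stood 4th with 1.05 ± 0.021 and ANKS4B 8th with 0.065 ± 0.064, where it did not differ beyond its spread from MYO1A (0.045 ± 0.028). In SP_12D ANKS4B was last with 0.010 ± 0.018, and USH1C (0.980 ± 0.69), ESPN (0.792 ± 0.61) and CDHR5 (0.780 ± 0.22) could not be ordered beyond their spread.
In the second table ESPN was last in Control_24H (0.0017 ± 0.0029) and 4th in SP_24H (0.886 ± 0.43), and ANKS4B was 3rd in Control_24H (0.734 ± 0.41) and 8th in SP_24H (0.159 ± 0.057). In Control_24H ANKS4B did not differ beyond its spread from USH1C (0.400 ± 0.20), and in SP_24H ESPN did not differ beyond its spread from USH1C (1.36 ± 0.31) or CDHR5 (0.607 ± 0.075). EZR and PLS1 kept the first 2 places in all 6 groups. The control means of the 2 tables were apart for USH1C (1.91 in Control_3D, 0.400 in Control_24H), CDHR5 (0.692 and 0.185) and VIL1 (0.364 and 0.165). They were also apart for EZR (111 and 243), MYO1A (0.184 and 0.094), MYO7B (0.060 and 0.029) and ESPN (0.023 and 0.0017). For PLS1, ANKS4B and CDHR2 they were 17.4 and 13.4, 1.29 and 0.734, and 0.341 and 0.219. In SP_3D and SP_24H USH1C, CDHR5 and VIL1 had 1.81 and 1.36, 0.727 and 0.607, and 0.211 and 0.297. Differences between the tables were not tested.

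**Figure D4:**
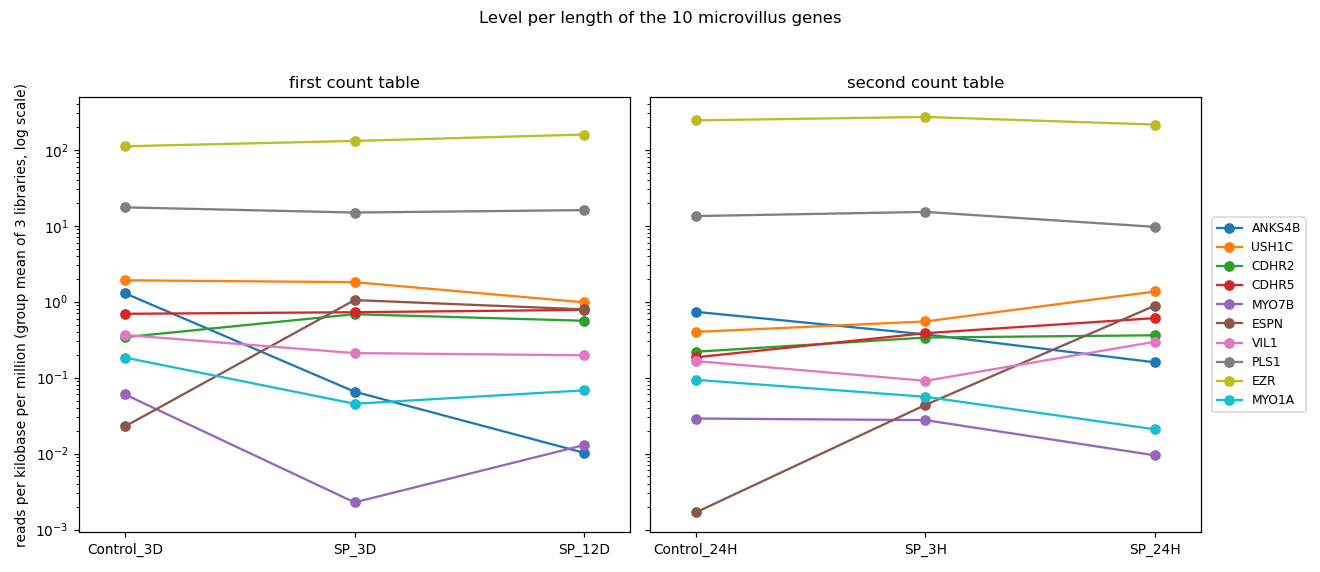
Mean RPKM, reads per kilobase of exon scaled to library size (log scale, 3 libraries per group, no error bars) of the 10 microvillus genes, joined by lines within each count table. EZR and PLS1 run nearly level at the top, while the lines of ESPN and ANKS4B cross.

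The genes whose 4 log2 fold changes against control lay nearest to those of ESPN, among 16654 genes tested in both tables, were CA4, a membrane-bound carbonic anhydrase (Euclidean distance 1.2), ATP1B2, a beta subunit of the sodium pump (1.40), and STAC2 (1.90). Nearest to ANKS4B were HABP2, a serine protease secreted by the liver (1.47), the alcohol dehydrogenase ADH6 (1.80) and CPN1, a subunit of the plasma carboxypeptidase N (2.06). The log2 fold changes of CA4 were 5.96, 4.54, 4.77 and 8.65 and those of HABP2 -4.06, -5.29, -0.34 and -2.05 for SP_3D, SP_12D, SP_3H and SP_24H. Each distance rests on 4 values that share 2 control groups.

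Outside the 10 members, 121 other genes of microvilli, stereocilia, filopodia, actin bundling and the brush border were looked up, of which 97 had enough reads at 3 and 12 days and 92 at the short times. Against control 47 rose and 21 fell in SP_3D, beside 25.2% and 23.3% of all tested genes. The counts were 44 and 20 in SP_12D (26.4% and 23.4% of all), 16 and 4 in SP_3H (7.39% and 4.11%), and 30 and 4 in SP_24H (16.8% and 12%), and the counts of each list below stand beside the same percentages. With a correction for GC content and length the SP_24H split was 32 higher and 13 lower. All adjusted p-values below come from edgeR over all tested genes, and the lists were drawn up with earlier results of these data known.

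Of the 17 tested genes of the microvillus core, 6 rose and 6 fell in SP_3D and 5 and 4 in SP_12D, and of 16 at the short times 1 rose and 1 fell in SP_3H and 3 rose in SP_24H. The medians in SP_3D, SP_12D and SP_24H were 0.00, -0.09 and 0.13 beside -0.02, 0.00 and -0.01 over all genes. EPS8L3, a member of the EPS8 family of actin capping and bundling proteins, fell in SP_3D from 106 to 9.42 normalized counts (log2 fold change -3.48 ± 0.36, adjusted p = 1.58e-06). BAIAP2L2, a membrane-curving partner of EPS8 proteins, fell in SP_12D (-0.95 ± 0.11, adjusted p = 2.23e-06), and MISP fell in SP_3H (-0.63 ± 0.13, adjusted p = 0.0125). COBL (cordon-bleu), an actin nucleator of the terminal web, rose in SP_12D from 480 to 1458 normalized counts (1.60 ± 0.09, adjusted p = 8.23e-10). PODXL, a sialomucin of the apical membrane, rose in SP_3D (1.46 ± 0.09, adjusted p = 3.48e-09), as did the protocadherin CDHR1 (1.70 ± 0.39, adjusted p = 0.00199). CALML4, a light chain of MYO7B, had log2 fold changes of -0.64 to -0.32 in the 4 comparisons, with adjusted p-values of 0.11 to 0.511.

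Of 15 listed counterparts of the adhesion complex in stereocilia, 9 were tested at 3 and 12 days and 8 at the short times. Of these, 7 rose in SP_3D and 6 in SP_12D, where 1 fell, 4 rose in SP_3H and 5 in SP_24H. Their medians were 1.08, 1.13, 0.50 and 0.84, beside -0.02, 0.00, 0.00 and -0.01 over all tested genes. USH1G (SANS), the paralog of ANKS4B, rose at all 4 SP times, from 3 reads in Control_24H to 77 in SP_3H and 124 in SP_24H (ratio for SP_24H 27.7, 95% interval 9.26 to 136, adjusted p = 0.00249). At the longer times USH1G had 2 reads in Control_3D, 41 in SP_3D and 39 in SP_12D. CDH23, the cadherin of tip links, rose in SP_3D from 62.4 to 333 normalized counts (2.42 ± 0.18, adjusted p = 2.15e-08), and its tip-link partner PCDH15 had at most 1 read summed over any group. The harmonin paralogs PDZD7 and WHRN rose too, PDZD7 in SP_24H from 49.9 to 315 (2.65 ± 0.17, adjusted p = 3.00e-05) and WHRN in all 4 comparisons (1.03 to 1.27, adjusted p = 1.22e-04 to 0.0127). MYO7A, the paralog of MYO7B, fell in SP_12D (-0.55 ± 0.16, adjusted p = 0.00798). The hair cell markers summed to 20.3 to 30.1 normalized counts in Control_3D and 61.9 to 92 in SP_3D and SP_12D. At the short times they summed to 7.32 to 15.2 in Control_24H, 23.9 to 43.2 in SP_3H and 48.5 to 59 in SP_24H. GFI1 was the highest of them in each SP group, with means of 46.1 in SP_3D and 26.9 in SP_24H, while LHX3 and ATOH1 had at most 4 reads in any library. Their part in these values was not tested.

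Of the 10 tested ezrin-like and linker genes, 5 rose and 1 fell in SP_3D, 6 and 1 in SP_12D, 1 rose in SP_3H and 2 in SP_24H. RDX (radixin), the closest relative of EZR beside MSN (moesin), rose in SP_12D from 2358 to 6493 normalized counts (1.46 ± 0.10, adjusted p = 6.52e-09), and MSN by 0.46 ± 0.10 (adjusted p = 8.87e-04). NHERF1, the scaffold that docks membrane proteins on ezrin, rose in SP_24H (1.03 ± 0.16, adjusted p = 0.00144). NHERF2 fell in SP_12D (-0.43 ± 0.11, adjusted p = 0.003), and SLK, a kinase that activates ezrin, fell in SP_3D (-0.40 ± 0.10, adjusted p = 0.00376). PLEKHG6 rose in SP_24H (1.08 ± 0.31, adjusted p = 0.0293), a call that was lost with the replicate block (adjusted p = 0.0659) and without any single library of SP_24H or replicate 1 or 2 of Control_24H (up to 0.0864).

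Of the other actin bundling and filament genes, 8 of 14 tested rose in SP_3D and 10 of 14 in SP_12D, and 3 of 13 in SP_3H and 7 of 13 in SP_24H, with 1 fall, PLS3 in SP_3D. SCIN (scinderin), of the villin and gelsolin family, rose in SP_3D from 41.2 to 248 normalized counts (2.60 ± 0.23, adjusted p = 4.32e-07). Gelsolin itself (GSN) rose in SP_24H (1.48 ± 0.15, adjusted p = 1.88e-04), and LIMA1, which stabilizes filament bundles, rose in SP_12D (2.0 ± 0.11, adjusted p = 8.06e-10). AVIL, a paralog of VIL1, rose in SP_24H (1.33 ± 0.29, adjusted p = 0.00802), and VILL did not pass the test in any comparison with control. PLS3, the broadly expressed paralog of PLS1, fell in SP_3D by 0.35 (± 0.10, adjusted p = 0.00649), as PLS1 was lower there, and with the correction for GC content and length it did not pass (-0.17, adjusted p = 0.0865).

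Among 14 tested myosins outside the members, 4 rose and 4 fell in SP_3D, 2 and 4 in SP_12D, and 3 and 1 in SP_24H. In SP_3H edgeR called 0 of the 14, with 3 at an unadjusted p under 0.05 and 0 by DESeq2. Of the class I relatives of MYO1A, MYO1D rose in SP_12D (1.28 ± 0.12, adjusted p = 5.00e-07), and MYO1F (1.69 ± 0.23, adjusted p = 8.52e-04) and MYO1E (0.73 ± 0.11, adjusted p = 0.00129) rose in SP_24H, while MYO1C had 0.05 to 0.13 in SP_3D, SP_12D and SP_24H without passing the test. MYO19 fell in SP_3D (-0.71 ± 0.10, adjusted p = 2.03e-05) and MYO18A in SP_12D (-0.63 ± 0.08, adjusted p = 1.36e-05). MYO5B, which recycles apical membrane proteins, fell in SP_24H (-0.50 ± 0.15, adjusted p = 0.0347). That call was lost without any single library of SP_24H, replicate 1 or 2 of Control_24H or replicate 1 of SP_3H (up to 0.12). In the first table MYO5B was higher with SP, with mean normalized counts of 252 in Control_3D, 349 in SP_3D and 401 in SP_12D.
Of 11 filopodia genes 7 rose in SP_3D, 6 rose and 1 fell in SP_12D, 4 rose in SP_3H, and 3 rose and 1 fell in SP_24H. Those that rose included the formin DAAM1 (1.38 ± 0.12, adjusted p = 1.09e-07) and the GTPase RHOF (0.92 ± 0.10, adjusted p = 2.65e-06) in SP_12D and the filament elongator ENAH (0.72 ± 0.08, adjusted p = 1.76e-06) in SP_3D. The formin DIAPH3 fell in SP_12D (-0.97 ± 0.29, adjusted p = 0.0195; 0.0593 without replicate 2 of Control_3D).

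**Figure D5:**
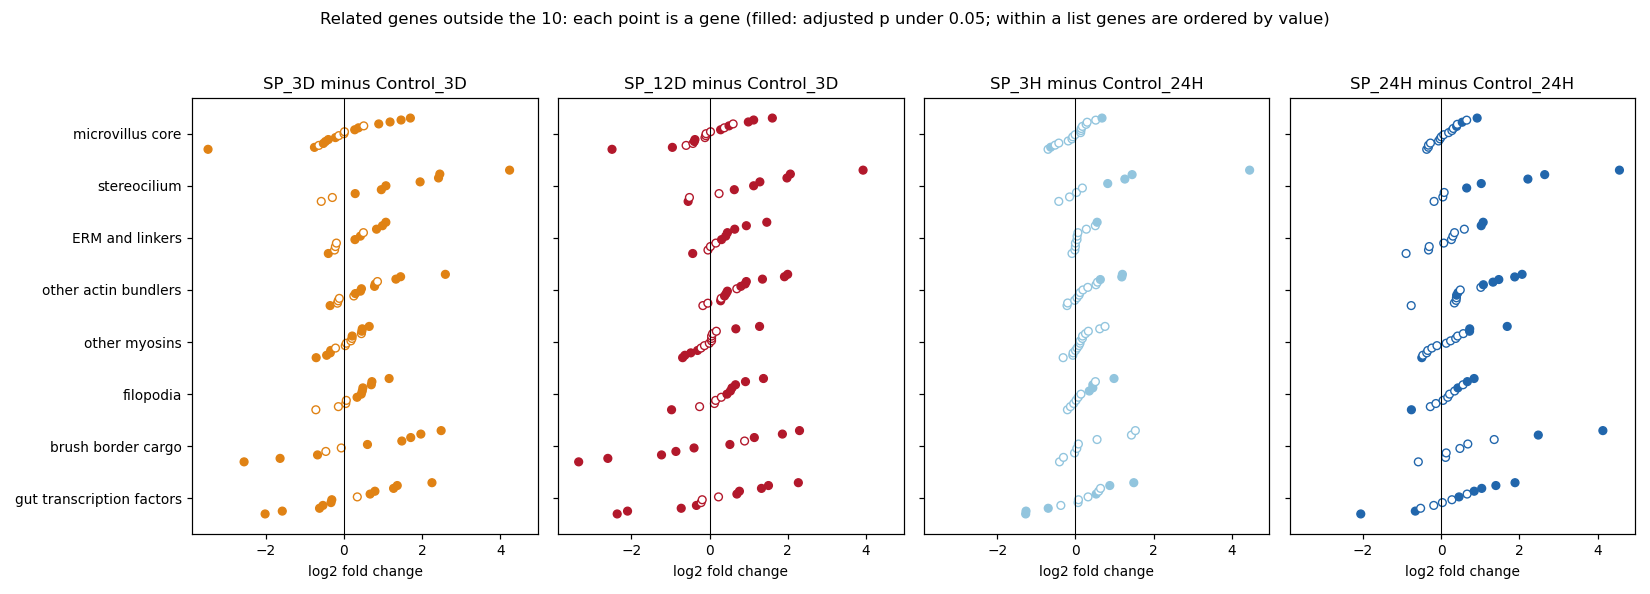
Log2 fold change against control of each tested gene in 8 lists of related genes, 1 point per gene, filled where the adjusted p was under 0.05, for the 4 SP times. In the stereocilium list 7 of 9 genes lie right of 0 in SP_3D and in SP_12D, and the microvillus core list lies on both sides.

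Genes for proteins carried by the brush border moved in both directions. Of 10 tested, 5 rose and 3 fell in SP_3D and 4 and 5 in SP_12D, and 2 of 8 rose in SP_24H. In SP_3H edgeR called 0 of the 8 tested, with 1 at an unadjusted p under 0.05 and 0 by DESeq2. The disaccharidase MGAM fell in SP_12D from 512 to 50.9 normalized counts (-3.35 ± 0.17, adjusted p = 3.72e-10) and the aminopeptidase ANPEP from 665 to 109 (-2.60 ± 0.14, adjusted p = 8.63e-10), and ENPEP fell in SP_3D (-1.63 ± 0.40, adjusted p = 0.00339). The peptide transporter SLC15A1 rose in SP_24H from 1.68 to 30.2 normalized counts (4.14 ± 0.61, adjusted p = 0.00117), the peptidase DPP4 from 19.8 to 110 (2.49 ± 0.32, adjusted p = 6.09e-04), and the endocytic receptor CUBN rose in SP_3D (1.48 ± 0.40, adjusted p = 0.00617).
Transcription factors known to act in gut epithelium also split, with 5 rising and 6 falling of 12 in SP_3D, 5 and 4 in SP_12D, 3 and 3 in SP_3H and 5 and 2 in SP_24H. HNF4G fell in SP_12D from 228 to 43.6 normalized counts (-2.37 ± 0.20, adjusted p = 1.07e-07). GATA5 (2.27 ± 0.17, adjusted p = 3.23e-08) and the vitamin D receptor VDR (1.51 ± 0.11, adjusted p = 2.56e-08) rose in SP_12D. CDX2 rose in SP_24H (1.40 ± 0.34, adjusted p = 0.013), a call lost without replicate 1 of Control_24H or replicate 2 of SP_24H (up to 0.0547).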

How the data were processed

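RNA-seq of A549 cells was deposited by the authors as 2 tables of read counts per Ensembl gene, made from paired-end reads with STAR (2.7.9a) and featureCounts on GRCh38 and tested by them in R (4.2.1) with DESeq2 (1.36.0). Whether counting used strand or how it treated reads with several positions was not given in the sources used here. Each table was fitted here with all 9 libraries in edgeR (4.0.16, R 4.3.3): TMM scaling, filterByExpr with a minimum count of 10, robust quasi-likelihood test, Benjamini-Hochberg adjustment, threshold 0.05. Alternatives were DESeq2 (1.42.0), RLE scaling, no filter, the 2 groups alone, a replicate block, a correction for GC content and transcript length (splines with 5 degrees of freedom), an adjusted p of 0.0001 with 2-fold, and leaving out each library. The scripts were tested on simulated data. Ratios of summed reads carry exact conditional binomial 95% intervals. Levels per length used the union of exons in GENCODE. The numbers 1 to 3 of Control_24H and SP_24H were taken as pairs from the correlation of deviations from the group mean. Same-numbered libraries correlated at 0.499, 0.17 and 0.504, and different-numbered ones at -0.546 to 0.175. Different-numbered libraries of Control_24H and SP_3H reached 0.576, so the pairing is not established.

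The members and gene lists were chosen with earlier results of these data known. Named outside the members were, per list, up to 3 genes in each direction with the largest fold change past the threshold in a comparison with control and a group mean of at least 20 normalized counts, paralogs of members, and the 3 nearest patterns. CALML4, GPRIN1, TNFRSF25, USP37, PCDH15 and the pseudogenes were named for their relation to a member. Some genes that meet this rule are not reported here. All columns were matched to a sample.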

Additional observations from a re-analysis of the deposited data

Results flagged for a closer look

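For 3 microvillus genes the contrast of SP_24H with SP_3H was past the threshold in edgeR. The log2 differences were 4.40 for ESPN (adjusted p = 7.78e-04), 1.65 for VIL1 (0.0422) and 1.29 for USH1C (0.0326). The VIL1 and USH1C calls each passed in 5 of the 9 fits that left out a library (adjusted p up to 0.169 and 0.116). SP_3H had no untreated group of its own time, and the members were picked with the fold changes of both groups against control known. The contrast is the difference of those fold changes, so for the members it is a description from which nothing is read. The groups hold 3 libraries each, too few to look for single outlying libraries by a fixed criterion.

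Related genes named above also passed an adjusted p of 0.05 (edgeR, all libraries) between the 2 times of their table. Between 3 and 12 days the largest adjusted p was 0.0476 (SCIN), beside 4.46% of all tested genes higher and 3.65% lower. Between 3 and 24 hours it was 0.0489 (SCIN), beside 11.7% higher and 8.4% lower. Calls among the other listed genes between 3 and 12 days ran from 5 to 44 with 1 library left out. How each gene stood without the third SP_12D library is not given. Between 3 and 12 days of SP the log2 differences, later minus earlier, were 0.67 for LIMA1, 0.63 for MYO1D, 0.50 for PLEKHG6, 0.42 for COBL, 0.42 for SLK, 0.39 for RDX and 0.35 for MISP, and -1.93 for ANPEP, -0.80 for MGAM, -0.68 for SCIN, -0.57 for DPP4, -0.35 for NHERF1 and -0.34 for PODXL. Between 3 and 24 hours they were 2.7 for SLC15A1, 2.19 for CDH23, 1.93 for DPP4, 1.81 for GATA5, 1.51 for SCIN, 1.2 for PDZD7, 0.95 for GSN, 0.93 for MYO1F, 0.79 for MYO1D, 0.68 for LIMA1, 0.64 for MISP and 0.40 for MYO1E, and -0.72 for DIAPH3 and -0.50 for MYO5B.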

How the results depend on the processing

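The precision of the members is limited by their low counts, since all but PLS1 and EZR had at most 408 reads per library, and by 3 libraries per group. Of 216 counts of calls recomputed under other settings 47 moved by over 1.5 times, and of 960 fold changes of single members 22 changed sign, none of them past the threshold in the original fit. The cause was not tested.

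At an adjusted p of 0.0001 with 2-fold the calls among members were 1 in SP_3D, 1 in SP_12D, 0 in SP_24H and 0 between 3 and 24 hours, and among the other listed genes 16, 18, 1 and 0, with 0 in SP_3H and 1 between 3 and 12 days. Between 3 and 24 hours 5 members passed instead of 3 with the 2 groups alone, with the replicate block, with both, and with the block and the GC and length correction, ANKS4B and EZR (adjusted p = 0.0446 and 0.0455 with the block) being the added pair, and 33 other genes instead of 21 passed with the block and the correction. The correction alone gave 18 higher and 13 lower there, against 17 and 4. In SP_3H 1 member passed with DESeq2, with the correction or without the filter and 2 with the block and the correction, while the other listed genes passing were 8 with the 2 groups alone, 0 with these and the block, an alternative chosen after seeing the data, and 32 with the block and the correction, against 20. Between 3 and 12 days 2 members passed without the filter and 7 other genes, against 15, with the 2 groups and the block. The shares of all tested genes under these settings are not given beside the counts, so nothing about the members is read from them.

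Leaving out each library, members past the threshold ran from 4 to 7 in SP_3D, 4 to 7 in SP_12D, 0 to 1 in SP_3H, 3 to 5 in SP_24H, 0 to 5 between 3 and 12 days and 1 to 5 between 3 and 24 hours, and the other genes from 60 to 77, 53 to 69, 9 to 22, 24 to 49, 5 to 44 and 11 to 28.

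Signs changed with the correction for CDHR5 in SP_3D (-0.342, the same with the block) and SP_12D (-0.121, and -0.129 with the block), PLS1 between 3 and 12 days (-0.055 and -0.056) and in SP_24H (0.111 and 0.127), and CDHR2 between 3 and 24 hours (-0.08 and -0.085). They also changed in the ranges over left-out libraries, which ran for CDHR5 from -0.002 to 0.148 in SP_3D, from -0.112 to 0.34 in SP_12D and from -0.168 to 0.283 between 3 and 12 days, with the lowest value without Control_3D replicate 3, SP_12D replicate 3 and SP_12D replicate 3. Between 3 and 12 days MYO1A ran from -0.062 (without SP_12D replicate 3) to 1.038, ESPN from -1.268 to 0.015 (without SP_12D replicate 2), and VIL1 from -1.251 to 0.328, with 0.288 and 0.213 without SP_12D replicate 2 and SP_3D replicate 3. CDHR2 between 3 and 24 hours ran from -0.152 (without SP_3H replicate 3; -0.065 without SP_24H replicate 2) to 0.364, and PLS1 in SP_3H from -0.211 (without Control_24H replicate 3; -0.02 without SP_3H replicate 3) to 0.495.

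In SP_24H the replicate block, where the numbers were taken as pairs, changed the calls of VIL1 (adjusted p = 0.0175 against 0.179), PLEKHG6 (0.0659), ACTN4 (0.0588 against 0.0474), EPS8L2 (0.0777 against 0.0497) and MGAM (0.0127 against 0.146) among all listed genes, and no other. Elsewhere same-numbered libraries did not all correlate above 0.1, and the numbers were not taken as pairs.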
